A study of Homo sapiens with 6 samples.

Results

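Hydrogen sulfide is made and removed by a small set of enzymes, and 7 of their genes are described here: SQOR, ETHE1, TST and SUOX, which act in the oxidation of sulfide, and CBS, CTH and MPST, which act in its synthesis. They were chosen by gene symbol, with earlier results of these arrays known, and the rule takes for each gene its brightest probe set by the average of the 6 arrays, a value that takes no account of treatment. Of the 7 genes, 6 had a probe set annotated with their symbol alone, 1 each, among 18417 genes on the arrays. The probe set that carries CBS is annotated with a second locus too, so CBS was not analysed here.

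The arrays measured total RNA of IMR90, a line of human lung fibroblasts, in 3 samples that received recombinant human oncostatin M once at 10 ng/mL and 3 untreated control samples, 1 array each. Oncostatin M belongs to the interleukin-6 family of cytokines, whose receptors activate JAK kinases and the transcription factor STAT3. How long the cells were treated is not stated in the labels. Separate cultures are not stated either, so the p-values cover the spread among these 6 samples, part or all of which may be technical. Levels below are log2 expression values as the authors deposited them, differences (log2) are the mean after oncostatin M minus the control mean, and adjusted p-values come from limma over all 18417 genes, with 0.05 as the threshold.

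In mitochondria, sulfide:quinone oxidoreductase (SQOR) takes up hydrogen sulfide, passes its electrons to ubiquinone and hands the sulfur to glutathione, which becomes glutathione persulfide. The dioxygenase ETHE1 oxidises the persulfide to sulfite, the rhodanese TST can move persulfide sulfur onto sulfite to give thiosulfate, and sulfite oxidase (SUOX) turns sulfite into sulfate. On the side of synthesis, CBS and CTH are the enzymes of transsulfuration, which make cysteine from homocysteine and can release sulfide, and MPST draws sulfur from 3-mercaptopyruvate, a product of cysteine. Sulfide acts as a signal at low levels and blocks cytochrome c oxidase at high ones.

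The arrays were alike in medians and correlations but not in weight. Array medians lay between 6.54 and 6.66, correlations between arrays between 0.989 and 0.997 over all probe sets, and no columns were identical. Oncostatin M replicate 1 deviated most from its group and had an array weight of 0.226, against 0.723 to 3.22 for the other 5 arrays. The treated arrays carried a response to the cytokine: SOCS3, which dampens JAK signalling, had levels of 9.58, 9.70 and 9.63 after oncostatin M, against 7.54, 7.62 and 7.59 in controls. Of 11 fibroblast markers all lay above the 95th percentile of 429 olfactory receptor and keratin-associated protein genes, which fibroblasts are thought not to use, in both groups. That percentile was 6.71 after oncostatin M and 6.69 in controls. None of 5 endothelial markers, 1 of 4 measured leukocyte markers (CD68, which is not specific to leukocytes) and 2 of 7 epithelial markers (KRT8 and MUC1) lay above it in both groups. MUC1 rose by 1.12 (adjusted p = 0.000917, limma). Of the 11 fibroblast markers, LUM and PDGFRA rose by 0.75 and 0.39 (adjusted p = 0.0222 and 0.0337, limma). PDGFRB was lower, at -0.37 (adjusted p = 0.0253, limma), and the other markers of that list did not pass. Over all genes 1.72% rose and 1.70% fell. Summed on the linear scale, the 7 epithelial markers ran from 786 to 932 after oncostatin M, against 638 to 700 in controls. Without MUC1, left out after its value was seen, the sums of the other 6 overlapped. They ran from 473 to 582 after oncostatin M and from 478 to 530 in controls, with KRT8 the brightest of the 6. Differences of these 6 genes ran from -0.064 to 0.15. EPCAM averaged 4.86 after oncostatin M and 4.71 in controls, near the medians of 4.73 and 4.68 of the presumed silent genes in these groups. The part of these markers in the results below was not tested.

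Within the set, SQOR was the gene that passed the threshold. The level of SQOR (probe set 7983512) was 9.92, 10.01 and 9.87 after oncostatin M, against 8.52, 8.56 and 8.59 in controls. Every treated array lay more than 1 log2 unit above every control array, and the spread within either group was small. The mean was 9.93 ± 0.07 after oncostatin M and 8.56 ± 0.04 in controls (SD, n = 3 each), a rise of 1.38 (SE 0.07), or 2.60-fold with a 95% interval of 2.32 to 2.91 (adjusted p = 9.3e-05, limma). SQOR was put at the head of the set with this difference known, so its p is a description and not independent evidence. In order of size it was the 29th of the 316 genes that rose. Whether more cells or more RNA per cell carried the difference cannot be told apart in RNA of whole cultures.

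**Figure D1:**
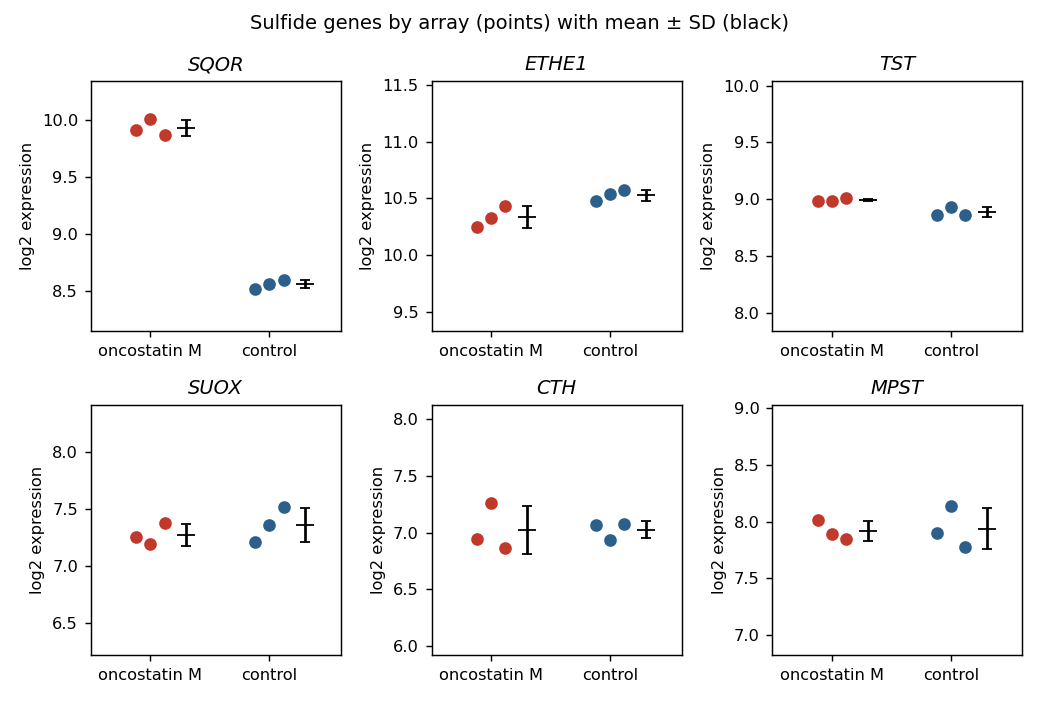
Log2 expression of 6 sulfide genes on each array (points, oncostatin M in red on the left and control in blue on the right, replicates 1 to 3 from left to right) with the mean and SD of 3 arrays in black. Each panel spans the same height of the log2 scale. SQOR stands at 9.87 to 10.01 after oncostatin M and at 8.52 to 8.59 in controls, while the 5 other genes show differences between -0.19 and 0.11.

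Of the 6 measured genes 1 rose and none fell (limma), while 1.72% of all genes rose and 1.70% fell (3.42% in either direction). At an unadjusted p under 0.05, SQOR was higher and ETHE1 lower, where 4.98% and 6.66% of all genes were. The groups did not overlap for SQOR and TST, both higher after oncostatin M, and for ETHE1, lower after it. Over all genes 7.43% were higher and 10.6% lower without overlap. With 6 genes and 1 of them picked for its difference, nothing is read from these counts. The median difference of the 6 was -0.012, against 0.00057 for all genes.

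The sequence before the annotated start of SQOR is shown because SQOR is the gene the result turns on. The 250 bases upstream of the start in RefSeq (GRCh38.p14, chr15:45634779-45635028, plus strand), read 5′ to 3′, held none of the motifs searched, so no base is in capitals:
SQOR: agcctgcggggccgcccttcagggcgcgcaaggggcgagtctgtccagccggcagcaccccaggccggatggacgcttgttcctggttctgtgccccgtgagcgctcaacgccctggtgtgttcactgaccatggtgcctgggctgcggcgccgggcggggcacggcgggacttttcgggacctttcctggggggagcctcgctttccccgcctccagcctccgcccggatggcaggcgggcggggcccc
It is rich in G and C, with 73.2% G or C and 24 CG dinucleotides, against medians of 58% and 11 over the same 250 bases before the start in 35116 promoters. This is not particular to SQOR. The same stretch held 68.4% and 23 in ETHE1, 61.6% and 20 in CTH, and 58.8% and 8 in SUOX, none of which passed.

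The motifs were TTCNNNGAA for STAT factors, TGACNNNGC for the core of the antioxidant response element and TGATGNAA for the core of the C/EBP-ATF element, searched on both strands in windows of 300 bases, 250 before and 50 after the start. They were found in 7.66%, 13.3% and 3.62% of all windows. Promoter windows were at hand for 4 of the 6 measured genes (SQOR, ETHE1, SUOX and CTH). Among these, 1 match was found, TGACCCCGC in ETHE1, which begins at base 6 after the start on the strand of the gene. The absence of these letters from a window of this length says nothing about whether the factors act on the gene elsewhere.

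ETHE1, the dioxygenase that acts next after SQOR, did not pass the threshold. The level of ETHE1 (probe set 8037322) was 10.25, 10.33 and 10.43 after oncostatin M, against 10.48, 10.54 and 10.57 in controls. All 3 treated arrays lay below all 3 controls, but the gap between the nearest arrays was smaller than the spread among the treated ones. The difference was -0.19 (SE 0.08, 95% interval -0.37 to -0.017, adjusted p = 0.357, limma). The lowest value belonged to oncostatin M replicate 1, and without that array the difference was -0.15 (adjusted p = 0.436).

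TST, the rhodanese of the thiosulfate branch, had levels of 8.99, 8.99 and 9.01 after oncostatin M, against 8.86, 8.94 and 8.86 in controls. The treated arrays were nearly equal to each other and just above the highest control. The difference of 0.11 (SE 0.07, 95% interval -0.045 to 0.26, adjusted p = 0.690, limma) did not pass, and the interval ends well short of the difference of SQOR.

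SUOX, which finishes the route to sulfate, had levels of 7.25, 7.19 and 7.38 after oncostatin M, against 7.21, 7.36 and 7.52 in controls. The groups overlapped, and the difference was -0.085 (SE 0.10, 95% interval -0.31 to 0.14, adjusted p = 0.910, limma). Its probe set (7956097) was dim, above 96.0% of the presumed silent genes after oncostatin M and 96.5% in controls, a level at which RMA tends to shrink differences.

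For synthesis, neither measured gene passed. CTH, cystathionine gamma-lyase, had levels of 6.95, 7.26 and 6.87 after oncostatin M, against 7.06, 6.94 and 7.08 in controls. The treated arrays lay on both sides of the controls, with oncostatin M replicate 2 the highest of the 6. The difference was -0.0028 (SE 0.11, 95% interval -0.26 to 0.25, adjusted p = 0.998, limma). At a mean of 7.02 after oncostatin M and 7.03 in controls, CTH was the dimmest of the 6 probe sets relative to the presumed silent genes (95.3% and 95.6% of them lay lower).

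MPST, the mercaptopyruvate sulfurtransferase, had levels of 8.01, 7.89 and 7.85 after oncostatin M, against 7.90, 8.14 and 7.78 in controls. Controls held both the highest and the lowest value, and the difference was -0.021 (SE 0.10, 95% interval -0.26 to 0.22, adjusted p = 0.988, limma). MPST and TST, which are related sulfurtransferases, are neighbours on chromosome 22, and their annotated spans overlap by 442 bases in RefSeq. Strands and probe positions were not compared, so whether any probe reads both genes was not tested. Their differences were 0.11 for TST and -0.021 for MPST, and neither passed.

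Set against the mean of the 5 other genes on the same array, SQOR stood 1.42, 1.47 and 1.35 above its control mean after oncostatin M, against 0.01, -0.03 and 0.02 in controls. The shift relative to single genes ranged from 1.27 (against TST) to 1.57 (against ETHE1). All 3 treated arrays were above all 3 controls for each of the 5 genes. These shifts are given as a description, since SQOR was chosen with its difference known.

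**Figure D2:**
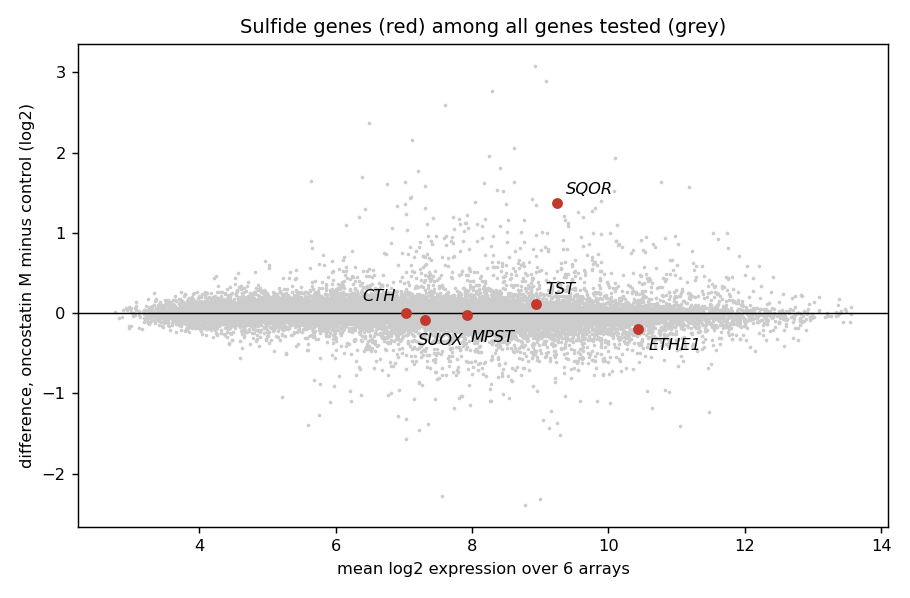
Difference between oncostatin M and control (log2, vertical axis) against the mean log2 expression over 6 arrays (horizontal axis) for 18417 genes in grey, with the 6 measured sulfide genes in red. SQOR lies at 1.38, and the other 5 lie between -0.19 and 0.11, inside the band of most genes.

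SQOR needs glutathione as the acceptor of sulfur and ubiquinone as the acceptor of electrons, and the route from cysteine to sulfate borders on several other pathways. In 12 lists of such neighbouring genes, 115 of 122 genes were measured, and 5 rose and none fell (limma). The 5 make 4.35% of the measured genes, while 1.72% of all genes rose and 1.70% fell. At an unadjusted p under 0.05, 18 were higher and 2 lower, or 15.7% and 1.74%, against 4.98% and 6.66% of all genes. These shares are a description, since the lists were drawn up with earlier results known. Their median difference was 0.025, against 0.00057 for all genes. The 5 genes were SLC7A11, SLC3A2, GCLC, MOCOS and CEBPB.

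Both subunits of the cystine importer were among them. SLC7A11, its transport subunit, which brings in the cystine used for glutathione, had levels of 11.91, 12.11 and 12.18 after oncostatin M, against 11.05, 10.93 and 11.47 in controls. Control replicate 3 was the highest control and still lay below every treated array. The rise was 0.92 (SE 0.14, adjusted p = 0.0112, limma), and the call was lost without control replicate 1 (adjusted p = 0.0859) or control replicate 2 (0.0520). SLC3A2, the partner subunit, which also serves other amino acid transporters, had levels of 11.04, 11.05 and 10.99 after oncostatin M, against 10.60, 10.66 and 10.63 in controls. It rose by 0.39 (SE 0.07, adjusted p = 0.0162, limma), and this call was lost in 5 of 6 fits that left out 1 array, with adjusted p up to 0.0976 without control replicate 1. The other 6 of 8 genes of cysteine and cystine transport did not pass. Over all genes 1.72% rose.

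GCLC, the catalytic subunit of glutamate-cysteine ligase, which sets the rate of glutathione synthesis, had levels of 10.06, 10.16 and 10.02 after oncostatin M, against 9.43, 9.39 and 9.46 in controls. The groups were far apart, and the rise was 0.66 (SE 0.07, adjusted p = 0.00215, limma). It was the 1 gene called among 13 measured genes of glutathione synthesis and turnover, where 3 were higher at an unadjusted p under 0.05 (23.1%, against 4.98% of all genes). Its modifier subunit GCLM, named here after its values were seen, had levels of 7.91, 8.53 and 8.61 after oncostatin M, against 7.49, 7.48 and 7.70 in controls. The treated array nearest to the controls was replicate 1, and the difference of 0.79 (SE 0.17, adjusted p = 0.0512, limma) did not pass. Without that array it passed (adjusted p = 0.000473). Over the 14 alternatives to the main fit, GCLM passed in 7, with adjusted p up to 0.233 (limma). GSS, glutathione synthase, differed by -0.047 (adjusted p = 0.963).

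Closer to SUOX, MOCOS, a sulfurase that activates the molybdenum cofactor of other enzymes, had levels of 7.54, 7.75 and 7.63 after oncostatin M, against 6.77, 6.88 and 6.81 in controls. The groups did not overlap, and it rose by 0.82 (SE 0.08, adjusted p = 0.00126, limma). Its probe set was dim in controls, above 95.3% of the presumed silent genes, against 97.4% after oncostatin M. SUOX carries the cofactor in a form that does not need this sulfurase. The other 10 of 11 measured genes of sulfite, molybdenum cofactor and sulfate did not pass, with MOCS1, MOCS2 and GPHN, which build the cofactor, at -0.040, -0.17 and 0.058.

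On the side of the electrons, none of 13 genes of coenzyme Q synthesis passed (limma), and none had an unadjusted p under 0.05. Differences ran from -0.083 (COQ10B) to 0.24 (COQ8A), with a median of -0.0047. Of 10 measured genes of other enzymes that reduce ubiquinone none passed, in a range from -0.12 to 0.17. At an unadjusted p under 0.05, 1 of them was higher, against 4.98% of all genes. For 11 genes of cytochrome c oxidase and cytochrome c, which follow ubiquinone in the chain and include the enzyme that sulfide blocks, no gene reached an unadjusted p under 0.05, and differences ran from -0.10 (COX7C) to 0.083 (COX5B). The medians of these lists were -0.011 and -0.0097.

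**Figure D3:**
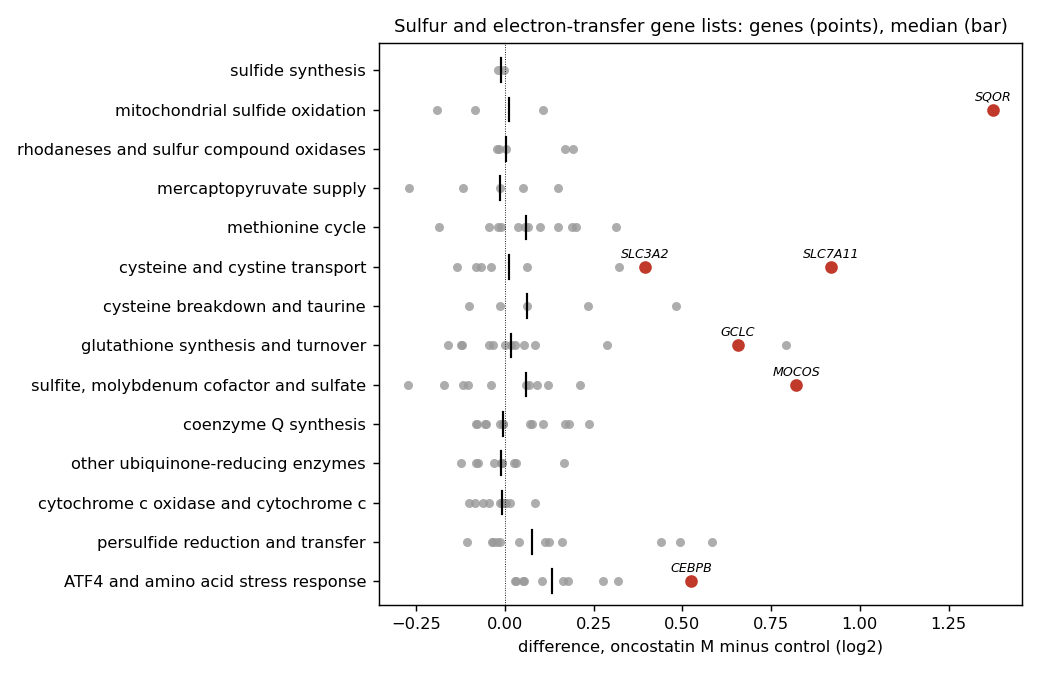
Differences between oncostatin M and control (log2) for the measured genes of 14 lists, 2 of sulfide enzymes on top and 12 of neighbouring pathways, with 1 point per gene, the list median as a black bar and genes past the threshold in red with their names. SQOR, SLC7A11, SLC3A2, GCLC, MOCOS and CEBPB are red, and the lists of coenzyme Q synthesis and cytochrome c oxidase lie close to 0.

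Upstream of sulfide, none of 12 measured genes of the methionine cycle passed (limma), with 2 higher and 1 lower at an unadjusted p under 0.05 and a median of 0.060. Neither did any of 5 genes that supply mercaptopyruvate, which MPST uses (1 lower at an unadjusted p under 0.05, range -0.27 to 0.15). Nor did any of 5 genes of cysteine breakdown and taurine (1 higher). At an unadjusted p under 0.05, 4.98% of all genes were higher and 6.66% lower. Other rhodaneses and sulfur oxidases gave 5 measured genes, none of which passed. SELENBP1, which oxidises methanethiol and releases sulfide, differed by 0.19 (adjusted p = 0.361).

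Among 12 genes that reduce or transfer persulfides, such as thioredoxins and glutaredoxins, none passed (limma) and 3 were higher at an unadjusted p under 0.05 (25%, against 4.98% of all genes). These were TXN, TXNRD1 and GLRX, named after their values were seen, at 0.44, 0.58 and 0.49 (adjusted p = 0.147, 0.0701 and 0.120). Without oncostatin M replicate 1 each of the 3 passed (adjusted p = 0.0228, 0.0387 and 0.00710). Over the 14 alternatives to the main fit, TXN passed in 2, TXNRD1 in 5 and GLRX in 3. Their adjusted p reached 0.432, 0.298 and 0.406 (limma). Of 10 genes of the ATF4 and amino acid stress response, which is known to act on CTH, CEBPB, a transcription factor that also answers cytokines of the interleukin-6 family, rose by 0.52 (SE 0.07, adjusted p = 0.0052, limma). ATF4 itself differed by 0.051 (adjusted p = 0.963). The list median was 0.13, against 0.00057 for all genes, with all 10 above 0. At an unadjusted p under 0.05, 2 of the 10 were higher, against 4.98% of all genes. Several, such as PSAT1, ASNS and TRIB3, were lowest on replicate 3 among the treated arrays, so the 10 are not separate observations.

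**Figure D4:**
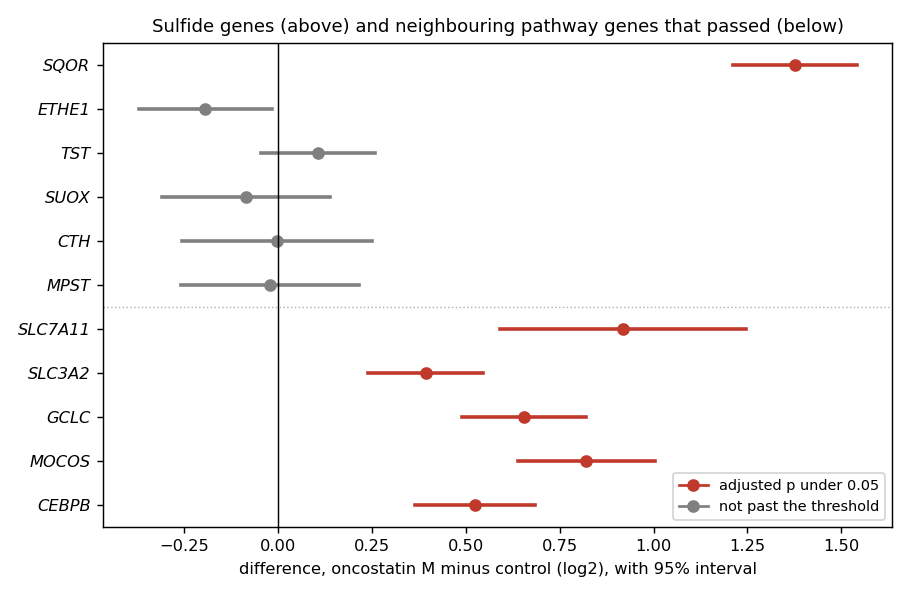
Differences between oncostatin M and control (log2, points) with 95% intervals from limma (lines) for the 6 measured sulfide genes above the dotted line and the 5 neighbouring pathway genes that passed below it, red where the adjusted p was under 0.05. The interval of SQOR, 1.21 to 1.54, lies above those of the 5 other sulfide genes, whose upper ends reach at most 0.26.

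The 5 genes whose values were most like those of SQOR over the 6 arrays were MMD, LAMA4, NNMT, IFITM1 and PTGS2. Likeness was measured as the root mean square distance between the 2 genes after each was set to its own control mean, and it was 0.054 for MMD, 0.081 for LAMA4, 0.10 for NNMT, 0.10 for IFITM1 and 0.11 for PTGS2, against 0.98 for the median gene. The 5 other sulfide genes lay between 0.90 (TST) and 1.11 (ETHE1) from SQOR. MMD, a membrane protein named for macrophage differentiation, had levels of 9.54, 9.73 and 9.50 after oncostatin M, against 8.08, 8.16 and 8.24 in controls. LAMA4, a laminin chain, had levels of 10.46, 10.48 and 10.44 after oncostatin M, against 9.17, 9.22 and 9.07 in controls. NNMT, which uses S-adenosylmethionine to methylate nicotinamide, had levels of 10.60, 10.61 and 10.56 after oncostatin M, against 9.28, 9.26 and 9.04 in controls. IFITM1 encodes an interferon-induced membrane protein, and PTGS2 the inducible cyclooxygenase. The control mean of PTGS2, 6.33, lay below the 95th percentile of the presumed silent genes, which was 6.69 in controls. With 3 arrays a group the measure mostly picks genes with a rise of the same size.

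**Figure D5:**
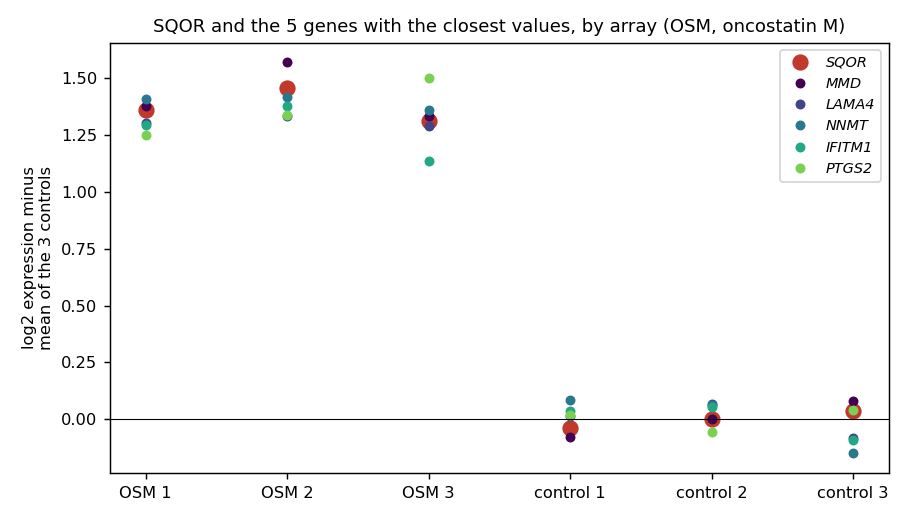
Log2 expression of SQOR (large red points) and of the 5 genes closest to it on each array, relative to the mean of each gene over the 3 controls, with the 3 oncostatin M arrays (OSM) on the left and the 3 controls on the right. The treated arrays lie between 1.1 and 1.6 for all 6 genes, and the controls between -0.15 and 0.09.

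SQOR lies on chromosome 15, and the nearest measured genes along it in RefSeq order, chosen after the values of SQOR were seen, did not share its rise. On the side before SQOR, BLOC1S6, SLC30A4 and COXFA4L3 differed by 0.095, 0.098 and 0.030, and none passed (adjusted p = 0.803, 0.764 and 0.970, limma). On the other side, SEMA6D, a semaphorin, fell by 0.63 (adjusted p = 0.00407) and MYEF2 fell by 0.44 (adjusted p = 0.0332), while SLC24A5 differed by -0.050 (adjusted p = 0.960). Distances between these genes were not taken into account.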

How the data were processed

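Per the labels' protocols, biotin-labelled targets were made from column-purified total RNA with an Ambion kit. The authors deposited 1 log2 value per probe set and array. Per the submitters' processing notes these are RMA values from Affymetrix Expression Console 1.1, with no settings named. RMA makes the arrays' distributions alike, so differences are relative to the other genes, and it tends to shrink them at low intensity. Groups and replicate numbers came from the labels.

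Of 33297 probe sets, 19460 were annotated with 1 symbol, 1754 with several and 12083 with none, which are unnamed here. No symbol needed updating. The brightest probe set of each of 18417 genes was tested (limma 3.58.1, R 4.3.3, group only, two-sided, Benjamini-Hochberg over all genes). No filter on dim genes was used. The step was tested on simulated data. The members and gene lists were chosen with earlier results of these data known. Named were all members, up to 3 called genes per list, the 5 genes most like SQOR, and SOCS3. Other genes were chosen after their values were seen. Alternatives changed the normalization, filter, probe set choice, prior, array weights, replicate block and single arrays. Figures were drawn with matplotlib 3.10.9. The number of arrays limits the precision.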

Additional observations from a re-analysis of the deposited data

How the results depend on the processing

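SQOR kept its rise and its call under all 14 alternatives, with differences between 1.34 and 1.41 and adjusted p up to 0.00332 (limma). Those that changed the filter, probe set choice, prior or replicate block could not move its difference from 1.38. SQOR has 1 probe set and the groups are of equal size, so only its p could change there. No other sulfide gene passed under any alternative. Differences of genes that never passed changed sign for CTH without oncostatin M replicate 1 (0.036), oncostatin M replicate 3 (0.076), control replicate 1 (0.016) or control replicate 3 (0.023), a range of -0.12 to 0.076 over the 6 arrays left out, for MPST without oncostatin M replicate 3 (0.014) or control replicate 2 (0.080), from -0.10 to 0.080, and for SUOX with array weights (0.0096). ETHE1 was -0.12 with array weights (adjusted p = 0.375).

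Neighbouring pathway genes that rose numbered 5, against 11 with a trended and robust prior, 15 with array weights and 3 to 11 with 1 array left out (11 without oncostatin M replicate 1, 3 without control replicate 1 or 2). Their share was 13.0% with array weights and 9.57% without oncostatin M replicate 1, against 3.62% and 2.17% of all genes. With the trended and robust prior it was 9.57%, against 2.19% of all genes. Without control replicate 1 or 2 it was 2.61% in each fit, against 0.847% and 1.02% of all genes. CEBPB, GCLC and MOCOS passed in 14 of 14 alternatives, SLC7A11 in 12 and SLC3A2 in 8. Genes over the array numbered 316 higher and 314 lower, 667 and 610 with array weights, and 156 to 400 and 105 to 332 with 1 array left out. The cause of these changes was not tested. With the replicate number as a block, SQOR rose by 1.38 (adjusted p = 0.00285, limma) and SLC3A2 lost its call (0.39, adjusted p = 0.0599). GCLM and TXNRD1 gained a call in that fit (adjusted p = 0.0484 and 0.0195, limma). In it 6 neighbouring pathway genes rose, or 5.22%, against 1.38% of all genes. Over the array 255 genes were higher and 223 lower. Deviations of same-numbered arrays correlated at 0.064, -0.46 and 0.51. With 3 arrays a group these values depend on each other, so they cannot decide whether the numbers pair the samples. The labels do not state a pairing, and the main fit used group only.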
